A study of Mus musculus with 18 samples.

Results

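The transcript response of Tlr779 B cells to the TLR7 agonist CL097 was set against that of Tlr9het B cells to the TLR9 agonist CpG. The 12 samples were chosen by their labels and were part of a series of 18, with 3 samples in each of 4 groups. The cells were B cells from spleens of MRL/lpr mice aged 5 to 7 weeks, an autoimmune strain with the lpr mutation of Fas, and had been enriched with beads that removed cells bearing CD43, CD4, CD8, CD11b, CD11c or Gr-1. Tlr779 mice were male and Tlr9-/-, and their Tlr7 locus had been edited so that TLR7 carries the TIR domain of TLR9. Per sample, 5M cells (M stands for 1e6) of those mice were kept for 4 h without agonist or with CL097 at 5 µg/ml. Tlr9het mice were female, Tlr9+/- by their sample titles and Tlr7-/-, and 4M cells per sample were kept for 4 h without agonist or with CpG (ODN 1826) at 10 µg/ml. The protocol text in the labels writes Tlr9-/- Tlr7-/- for the latter control, and the titles were followed here.

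TLR7 and TLR9 are receptors of endosomes that bind RNA and DNA, respectively, and both signal through a cytoplasmic TIR domain that recruits MyD88 and leads to NF-κB, MAP kinase and IRF activity. In lupus models TLR7 promotes disease, whereas TLR9 also restrains it. CL097 is a small imidazoquinoline ligand of TLR7, and CpG oligonucleotides are DNA ligands of TLR9. Both receptors compared here end in the TLR9 TIR domain, so the comparison asks what differs when the same signaling domain is engaged through another ectodomain, at another locus and by another agonist. Genotype, sex, agonist, dose, cell number and, by the paper, range of ages changed together with the receptor, so their shares in any difference cannot be told apart. TLR7 is expressed mainly in marginal zone and age-associated B cells and TLR9 in all B-cell subsets. In bulk RNA, fewer responding cells and a smaller response per cell cannot be told apart.

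Values were log2 CPM (log2 of read counts scaled to a total of 1e6 per sample) as normalized by the authors, and a response is the mean of the 3 stimulated minus the mean of the 3 unstimulated samples of the same arm. Only responses were tested between the arms, and genes on X and Y were left out of the tests. Levels of the arms are also set side by side, as description only. Differences in level between the arms were not tested, since genotype, sex and agonist differ as well. As a check of the labels, Tlr7 lay between 6.61 and 7.82 log2 CPM in the 6 Tlr779 samples and between 2.68 and 4.28 in the 6 Tlr9het samples, which are Tlr7-/-. Tlr9 lay between 6.93 and 7.47 in the Tlr779 samples, which are Tlr9-/-, and between 7.28 and 8.08 in the Tlr9het samples, so its total level did not separate the arms, and gene totals do not show which part of a gene was read. The Y-linked Ddx3y was between 7.29 and 7.47 in the Tlr779 samples and between -5.07 and -5.02 in the Tlr9het samples, as the labelled sexes imply. Of the defining B-cell markers, Ms4a1, which encodes CD20, was between 9.26 and 10.16 in all Tlr9het samples and between 9.16 and 10.31 in all Tlr779 samples. Cd79a moved more, between 7.61 and 10.97 in Tlr9het and between 9.21 and 11.19 in Tlr779 samples. Of the 7 defining markers tested, CL097 lowered 5, and CpG lowered 6 and raised 1. Replicates correlated at 0.977 to 0.989 across genes within each group.

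Both stimuli changed a large share of the transcriptome. A gene was called when its Benjamini-Hochberg adjusted p from limma was under 0.05 and its absolute log2 value over 0.5. Of 11079 genes tested, CL097 changed 5273 in Tlr779 (47.6%), with 2620 raised (23.6%) and 2653 lowered (23.9%). CpG changed 6572 in Tlr9het (59.3%), with 3383 raised (30.5%) and 3189 lowered (28.8%). The difference of the responses, CL097 minus CpG, was called in 2500 genes (22.6%), higher in 1306 (11.8%) and lower in 1194 (10.8%). Here higher means a response that was more positive with CL097, which includes genes that fell less. At an unadjusted p under 0.05 the counts were 7676, 8415 and 4993 genes.

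The responses were alike in direction and smaller with CL097. Of the genes tested, 4531 were called in the same direction in both responses, 25 in opposite directions, 717 only with CL097 and 2016 only with CpG. For 3206 of the 4531 the difference was not called, and among the other 1325, whose difference was called, the CL097 response was the smaller one in 1271 and the larger one in 54. Among all 2500 genes called for the difference, the CL097 response had the smaller size in 2190. Across genes the responses correlated at r = 0.86 and rho = 0.856, a description over genes that share libraries, and the geometric mean slope of the CL097 response on the CpG response was 0.758. Taking pairs of samples with the same number, the slope was 0.812, 0.769 and 0.772. When the CpG response was first multiplied by the slope, 1163 genes were called for the remaining difference, 669 higher (6.04%) and 494 lower (4.46%), and 1007 of them had been called with the same sign before scaling. Counts after this scaling are given beside the unscaled ones for the main groups of genes, since a uniformly smaller response alone produces unscaled calls. Every count of list members called higher or lower for the difference below stands beside 11.8% and 10.8% of all genes. After scaling it stands beside 6.04% and 4.46%. A replicate block is the number of the sample within each arm, and that fit called 1512 higher and 1368 lower of 11079 genes. Counts raised and lowered stand beside 23.6% and 23.9% of all genes with CL097, and beside 30.5% and 28.8% with CpG.

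**Figure D1:**
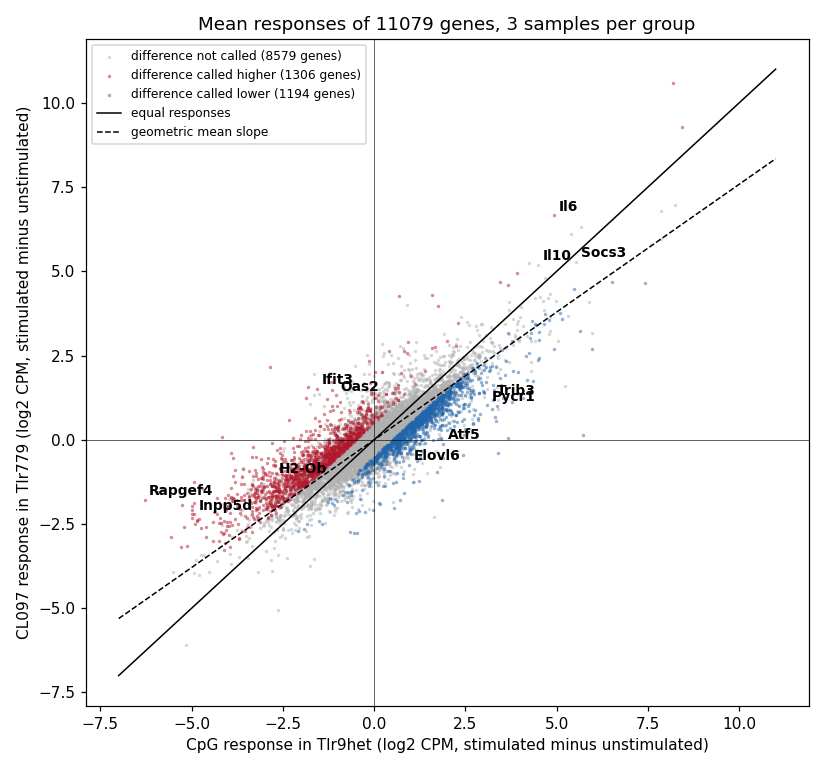
Mean CpG response in Tlr9het (x axis) against mean CL097 response in Tlr779 (y axis), both in log2 CPM, for each of 11079 genes, coloured by the call of the difference. The dashed line has the slope 0.758, and red points (1306) lie above and blue points (1194) below the line of equal responses.

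Of the 4531 genes called in the same direction, those raised most among the 3206 with no call for the difference are described first. Nfkbiz encodes IκBζ, a nuclear NF-κB cofactor induced by TLRs. Its level was 5.75, 5.51 and 5.82 log2 CPM in unstimulated and 10.55, 10.57 and 10.39 in CL097-treated Tlr779 samples, and 6.64, 6.47 and 6.36 in unstimulated and 11.19, 11.19 and 11.11 in CpG-treated Tlr9het samples. The responses were 4.81 and 4.68, and the 95% interval of their difference ran from -0.14 to 0.40. Socs3, a feedback inhibitor of cytokine receptor signaling, rose by 5.28 with CL097 and 5.54 with CpG (interval of the difference -0.91 to 0.39). Tnfsf15, a TNF family ligand, rose by 6.11 and 5.39 (-0.65 to 2.10), and Rhbdl3, a rhomboid-like gene, rose by 6.78 and 7.85 (-2.58 to 0.45). Except for Nfkbiz, these intervals reach past the threshold of 0.5, so a difference of that size could have been missed. After scaling by the slope, Nfkbiz, Socs3, Tnfsf15 and Il10 were called higher, since their CL097 responses were not reduced by that factor.

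Il10, the anti-inflammatory cytokine of regulatory B cells, belonged to the same set. It was at 1.05, 0.17 and 1.28 log2 CPM before and between 5.76 and 6.31 in the 3 samples after CL097, and at 0.93, 1.59 and 0.87 before and 5.65, 5.68 and 5.52 after CpG. The 3 CL097-treated samples were all above the 3 CpG-treated samples. Its responses of 5.19 and 4.49 differed by 0.70 ± 0.38 (SE), with a limma adjusted p of 0.169. With a replicate block, the number of the sample within each arm, the same difference was called at a limma adjusted p of 0.0470. Lag3, an inhibitory receptor, rose by 3.02 and 3.19 (interval of the difference -0.87 to 0.54).

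The genes lowered most in both responses with no call for the difference were Ppl, Pde4a, Rgs14, Mxd4 and Spns2. Pde4a encodes a cAMP phosphodiesterase, Mxd4 a Max partner that opposes Myc, and Spns2 a sphingosine-1-phosphate transporter. Pde4a fell by 3.68 on the log2 scale with CL097 and dropped by 3.91 with CpG, with an interval of the difference from -0.40 to 0.87. Rgs14, a G-protein regulator, fell by 3.61 and dropped by 4.31 (-0.26 to 1.67), Mxd4 fell by 3.49 and dropped by 3.71 (-0.35 to 0.79), and Spns2 fell by 3.52 and dropped by 3.46 (-0.71 to 0.58). Ppl, which encodes periplakin, fell by 3.93 and dropped by 4.52, and its difference of 0.59 was called only with the replicate block (limma adjusted p = 0.241 without and 0.0393 with it).

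Type I interferon response genes had a positive median response to CL097 and a slightly negative one to CpG. Of the 52 genes listed and tested, CL097 raised 31 and lowered 1, with a median response of 0.92, while CpG raised 10 and lowered 16, with a median of -0.17. The share lowered by CpG was thus close to that of all genes, and only Ifit3 and Oas2 were called in opposite directions. The medians over all genes tested were -0.01 and 0.03. A difference was called, higher in 26 and lower in 0 of the 52, beside 11.8% and 10.8% of all genes, and its median was 0.99, beside -0.05 over all genes. After scaling by the slope, 24 were called higher and 0 lower, with a median of 0.99. The estimate was positive in 49 of the 52 genes. The other 26 members, among them Ifit1, Isg15, Irf9, Rsad2 and Gbp2, did not pass the test of the difference.

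Ifit3, which encodes an antiviral protein of the IFIT family, had the most positive difference among the 52. It was at 6.65, 5.00 and 5.59 log2 CPM in unstimulated Tlr779 samples and at 7.39, 5.80 and 8.57 with CL097. In Tlr9het samples it was at 7.07, 7.18 and 5.84 without agonist and at 5.07, 5.13 and 5.22 with CpG. The CL097-treated samples spread widely but each was above every CpG-treated sample, whereas the unstimulated samples of the arms overlapped. The response was 1.51 ± 0.59 (SE) with CL097 and -1.56 ± 0.59 with CpG. The difference was 3.07 (95% interval 1.26 to 4.87, limma adjusted p = 0.0132), and it lay between 2.41 and 3.79 when any single sample was left out.

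Ifit2, of the same family, differed by 2.90 ± 0.77 and rose by 1.73 with CL097. Its neighbour I830012O16Rik (Ifit3b in RefSeq), outside the list, differed by 3.38 ± 0.99, but it is a near copy of Ifit3, and how reads were divided between the copies is uncertain for both. Mx1, an antiviral GTPase, was at 5.41, 3.83 and 4.88 before and 7.46, 5.84 and 7.87 after CL097. It was at 6.66, 6.62 and 5.43 before and 6.15, 5.96 and 6.19 after CpG. It thus rose by 2.35 in one arm and had a response of -0.14 that was not called in the other (difference 2.49 ± 0.71, limma adjusted p = 0.0168). Stat2, a transcription factor downstream of interferon receptors, was not called with CL097 and was lowered by CpG, and it differed by 1.69 ± 0.36. Thus Mx1 differed through a rise with CL097 and Stat2 through a fall with CpG.

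Replicates of the interferon list were uneven. Its mean level was 6.33, 5.76 and 5.81 log2 CPM in unstimulated Tlr779 samples 1, 2 and 3, and 7.00, 6.16 and 7.43 with CL097. It was 6.54, 6.55 and 5.94 in unstimulated Tlr9het samples and 6.11, 6.11 and 6.19 with CpG. Within each number, the median response was 0.71, 0.41 and 1.66 with CL097, and -0.36, -0.42 and 0.27 with CpG. The third Tlr9het pair was the one with a low unstimulated level. The number of members called for the difference depended on single samples: it fell from 26 to 13, 16, 16, 17 and 16 without unstimulated Tlr9het sample 1 or 2, CpG-treated Tlr9het sample 2, CL097-treated Tlr779 sample 1 or unstimulated Tlr779 sample 2, and rose to 42 without CL097-treated Tlr779 sample 2. The list median stayed between 0.71 and 1.37 in all 12 cases, and 1 member was called lower without CL097-treated or without unstimulated Tlr779 sample 3. Ifnb1, which encodes interferon β, was near the lower limit of the data without agonist and reached means of 0.38 with CL097 and 1.77 with CpG, and its difference of -1.80 ± 1.05 was not called.

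The promoter of Ifit3 is shown because interferon-stimulated response elements are the known sites through which type I interferon induces genes. The 250 bases before the RefSeq start of Ifit3 (GRCm38.p6, chr19:34583279-34583528, plus strand) are printed with matches to the core of that element in capitals. The core is GAAA, any 2 bases and GAAA, searched on both strands.
Ifit3: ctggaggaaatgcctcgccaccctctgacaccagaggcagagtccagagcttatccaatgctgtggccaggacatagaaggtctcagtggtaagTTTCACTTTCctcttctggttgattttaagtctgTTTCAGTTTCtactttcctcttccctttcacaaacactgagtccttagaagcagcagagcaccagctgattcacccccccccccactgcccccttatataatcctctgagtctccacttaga

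The matches begin 156 and 122 bases before the start. Of 8879 tested genes with a window of 300 bases in the RefSeq table, 3.21% held this motif. Of the 52 interferon genes 39 had a window (75.0%), beside 80.1% of all genes tested. Of the genes called for the difference, 1026 of 1306 called higher (78.6%) and 953 of 1194 called lower (79.8%) had one. The motif was in 46 windows of those called higher (4.48%) and 30 of those called lower (3.15%). It was in 20 of the 39 windows of the interferon genes (51.3%), a share that follows from the choice of that list. Genes without a window could not be searched, and these shares were not tested.

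**Figure D2:**
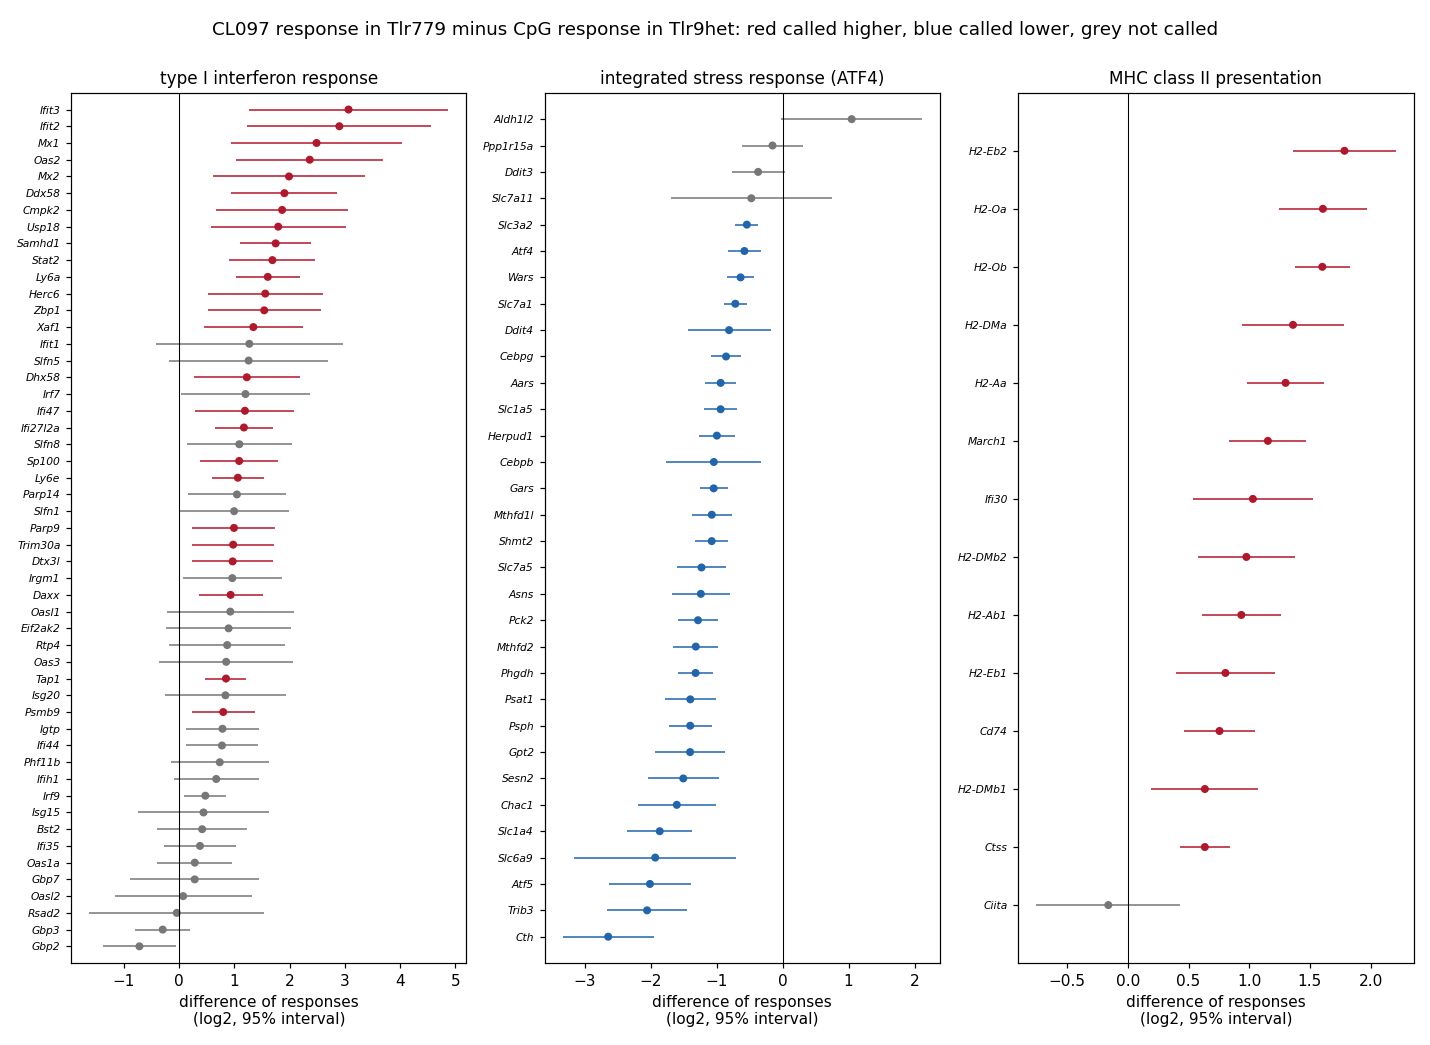
Difference of responses (x axis, log2, CL097 in Tlr779 minus CpG in Tlr9het) with its 95% interval for the tested members of the interferon (51 of 52 drawn), ATF4 (32) and MHC class II (14) lists. Red marks members called higher, blue those called lower (28, all ATF4 genes) and grey those not called.

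Genes of the integrated stress response, which the transcription factor ATF4 drives when amino acids are scarce or protein folding is disturbed, were raised less by CL097 than by CpG. Of 32 tested, CL097 raised 19 and lowered 3 (median 0.65), and CpG raised 27 and lowered 1 (median 1.53). For the difference 28 were called lower and 0 higher, with a median of -1.07. After scaling by the slope, 22 were still called lower and 0 higher (median -0.71), beside 4.46% of all genes. The mean level of the list was 5.05, 5.20 and 4.97 log2 CPM without and 5.86, 5.58 and 5.62 with CL097, and 5.13, 5.14 and 5.16 without and 6.90, 6.87 and 6.81 with CpG. The unstimulated samples of the arms thus lay close together, and every CpG-treated sample was above every CL097-treated one. The members that did not pass the test of the difference were Ddit3, Aldh1l2, Slc7a11 and Ppp1r15a.

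Cth had the most negative difference of this list, and other members were enzymes and transporters of amino acids. Cth, which makes cysteine from cystathionine, was at 0.62, 1.14 and 0.56 log2 CPM before and 1.73, 1.14 and 1.44 after CL097, and at 0.34, 0.62 and 0.31 before and 3.76, 3.86 and 3.57 after CpG. Its responses of 0.66 and 3.31 differed by -2.64 ± 0.32 (limma adjusted p = 9.72e-05). Pycr1, an enzyme of proline synthesis that was outside the list, rose by 1.02 and 3.09 (difference -2.06 ± 0.19, limma adjusted p = 1.59e-05). Its CL097-treated samples were at 2.78, 2.79 and 2.84, and its CpG-treated samples at 4.89, 4.96 and 4.85. The serine synthesis enzymes Phgdh, Psat1 and Psph differed by -1.32, -1.40 and -1.40, and Phgdh did not respond beyond the threshold to CL097 (0.14) while it rose by 1.46 with CpG. Asns, the asparagine synthetase, rose by 1.41 and 2.65. The amino acid transporters Slc1a4, Slc6a9 and Slc7a5 differed by -1.86, -1.93 and -1.23.

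Some regulators of the pathway were called as well, and Ddit3 and Ppp1r15a were not. Trib3, a pseudokinase that feeds back on ATF4, was at 2.22, 2.87 and 2.27 before and 4.10, 3.43 and 3.41 after CL097, and at 2.91, 2.84 and 2.79 before and 6.16, 6.15 and 5.98 after CpG. Its difference was -2.06 ± 0.28 (limma adjusted p = 0.000221). Atf5, a related transcription factor, rose by 1.90 with CpG and had a response of -0.12 with CL097 that was not called. Atf4 itself rose by 0.64 and 1.22 (difference -0.58 ± 0.12, limma adjusted p = 0.00246). Eif4ebp1, a repressor of cap-dependent translation outside the list, rose by 0.84 and 2.59. Pck2, the mitochondrial PEP carboxykinase, was called in opposite directions, at -0.51 with CL097 and 0.77 with CpG.

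Promoters of Chac1, a glutathione-degrading enzyme of this list (responses 1.85 and 3.45), and of Pycr1 are shown because ATF4 is known to bind a composite amino acid response element. The motif TGATGNAA, a search added after the lists had been counted, was in 9 of the 27 list promoters with a window (33.3%) and in 2.34% of the 8879 windows of all tested genes. The list was made of genes of a response that ATF4 drives, so this share follows from its choice and is no result of these data. Only 84.4% of its members had a window. Of the motifs searched as planned, TGANTCA (AP-1) was in 2 of the 27 (7.41%, beside 4.84% of all windows), and the interferon element, the κB site, CACGTG (E-box) and TGACGTCA (CRE) in 1 each (3.7%, beside 3.21%, 5.59%, 10.6% and 3.36%). The 250 bases before the start are given with the match in capitals, for Chac1 at chr2:119350992-119351241 (plus strand) and for Pycr1 at chr11:120643749-120643998 (minus strand), both GRCm38.p6 from RefSeq.
Chac1: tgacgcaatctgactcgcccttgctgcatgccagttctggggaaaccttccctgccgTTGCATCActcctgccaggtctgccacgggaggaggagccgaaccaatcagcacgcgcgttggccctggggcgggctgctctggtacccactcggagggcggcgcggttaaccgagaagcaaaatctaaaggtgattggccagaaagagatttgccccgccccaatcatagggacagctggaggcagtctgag
Pycr1: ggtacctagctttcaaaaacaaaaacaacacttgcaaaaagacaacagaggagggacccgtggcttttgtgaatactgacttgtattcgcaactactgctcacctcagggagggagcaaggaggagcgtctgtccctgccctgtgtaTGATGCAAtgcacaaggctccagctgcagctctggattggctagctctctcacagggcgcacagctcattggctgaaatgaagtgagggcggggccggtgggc

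The match begins 193 bases before the start in Chac1 and 103 bases before it in Pycr1. A match describes the letters in this window and is not a measurement of binding.

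Genes of resting B cells fell in both arms and fell less with CL097. Of 32 genes of resting lymphocytes and quiescence, CL097 lowered 23 and raised 4 (median -1.02), and CpG lowered 24 and raised 3 (median -1.68). For the difference 18 were called higher and 4 lower, with a median of 0.56, and after scaling 11 and 4 (median 0.34). Rapgef4, which encodes the cAMP-activated exchange factor EPAC2, had the most positive difference of all genes named by the rule. It was at 7.36, 7.01 and 7.51 log2 CPM before and 5.38, 5.24 and 5.90 after CL097, and at 7.66, 7.56 and 7.50 before and 0.80, 1.64 and 1.40 after CpG. The difference was 4.50 ± 0.30 (limma adjusted p = 2.02e-06). Cxcr4, a chemokine receptor, fell by 1.08 and dropped by 3.33. The transcription factor Ets1, which restrains plasma cell differentiation, fell by 1.79 and dropped by 3.56. Foxo1 was among the members called lower, since it fell by 0.65 with CL097 and had a response of -0.04 with CpG that was not called.

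The negative regulators of B-cell activation and differentiation that the study named from Tlr779 B cells also fell less with CL097. All 12 fell in both responses, with medians of -1.88 and -3.20, and all 12 were called higher for the difference (median 1.46, and 8 of 12 with a median of 0.60 after scaling). That list was chosen by the study on these samples and is not independent evidence of its direction. The study drew its lists from stimulated cells, Tlr779 against Tlr7+/Y and Tlr9het against Tlr997, which is unlike the difference of responses used here. Inpp5d encodes SHIP1, a lipid phosphatase that opposes PI3 kinase. It was at 9.85, 9.60 and 9.76 before and 7.35, 7.42 and 7.80 after CL097, and at 10.16, 10.03 and 10.11 before and 5.18, 5.25 and 5.06 after CpG, a difference of 2.73 ± 0.15 (limma adjusted p = 7.43e-07). The adaptor Sla differed by 2.11, the diacylglycerol kinase Dgka by 2.03 and the lysosomal regulator Laptm5 by 1.98. Of the 11 genes the study named from Tlr9het, 2 were called for the difference, the integrin subunit Itgb3 (2.01) and the sphingosine-1-phosphate receptor S1pr1 (1.15), and Socs1, Socs3 and Bcl6 were not. The study also named Itgb3 and S1pr1 as higher in stimulated Tlr779 than in stimulated Tlr7+/Y B cells, which is a contrast of genotypes. With the replicate block 3 of the 11 were called higher and 1 lower, and after scaling 4 and 0. In the wider list of 33 inhibitory receptors and antigen receptor dampers, 9 were called higher and 1 lower (8 and 2 after scaling, 9 and 3 with the block), with Fcrla at 2.02.

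MHC class II genes, through which B cells present antigen to CD4 T cells, fell more with CpG. Of 14 presentation genes, CL097 lowered 10 and CpG all 14, with medians of -1.14 and -2.34. For the difference 13 were called higher (median 1.00), 8 of the list after scaling (median 0.55), and 0 lower. H2-Ob, a subunit of H2-O, which inhibits peptide loading, was at 9.26, 9.25 and 9.35 before and 8.03, 8.19 and 8.25 after CL097, and at 9.39, 9.32 and 9.55 before and 6.62, 6.77 and 6.68 after CpG. Its difference was 1.60 ± 0.10 (limma adjusted p = 2.02e-06). H2-Oa, H2-DMa and H2-Eb2 differed by 1.61, 1.36 and 1.78. The exception was Ciita, the master activator of these genes, which fell by 1.17 with CL097 and dropped by 1.01 with CpG (difference -0.16 ± 0.27, limma adjusted p = 0.682). Components of the B-cell receptor moved alike: Cd79a differed by 1.73, Cd79b by 1.71 and the co-receptor Cd22 by 1.45. Of the 7 defining B-cell markers these 3 were called higher, and Pax5 was called lower. The call of Pax5 was lost in 4 of the 12 fits that left out a single sample.

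**Figure D3:**
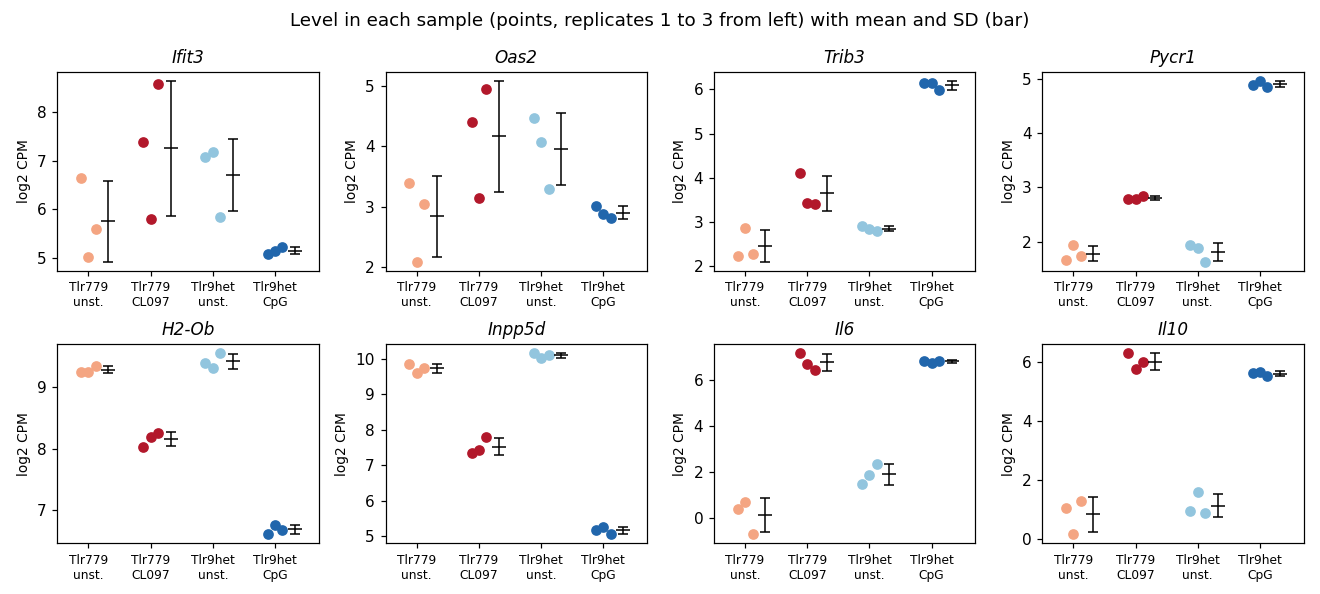
Level of 8 genes (y axis, log2 CPM) in each of the 12 samples, with points for replicates 1 to 3 and bars for the mean and SD of each group. Ifit3 and Oas2 rise with CL097 and fall with CpG with wide spread, Trib3 and Pycr1 rise more and H2-Ob and Inpp5d fall more with CpG, and Il6 and Il10 reach similar levels.

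Inflammatory cytokine genes rose strongly in both arms. Of 22 tested, CL097 raised 16 and lowered 2 (median 2.63), and CpG raised 17 and lowered 2 (median 2.34). The difference was called higher in 7 and lower in 2 (7 and 1 after scaling), and its median was -0.05, which turned to 0.50 after scaling and to 0.35 without CL097-treated Tlr779 sample 3. Il6, a B-cell and T-cell growth cytokine, was at 0.37, 0.71 and -0.69 log2 CPM before and 7.19, 6.72 and 6.45 after CL097, and at 1.47, 1.89 and 2.34 before and 6.87, 6.77 and 6.86 after CpG. The stimulated levels overlapped and the unstimulated levels did not, so the difference of 1.73 ± 0.45 (limma adjusted p = 0.0105) came with a lower unstimulated level in Tlr779. Tnf had the same form, at 2.77, 3.05 and 2.90 before and 6.24, 6.39 and 6.45 after CL097, and at 4.23, 4.33 and 4.10 before and 6.58, 6.43 and 6.55 after CpG (difference 1.15 ± 0.13, limma adjusted p = 7.74e-05).

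Il12b, a subunit of IL-12 and IL-23, rose by 10.59 with CL097 and 8.18 with CpG. It was at -1.96, -2.53 and -5.03 in unstimulated Tlr779 samples, the last at the lower limit of the data, so the size of its rise depends on the offset used before taking logs. With agonist it was at 6.79, 8.09 and 7.37 with CL097 and at 7.73, 7.87 and 8.01 with CpG. Its difference of 2.41 ± 0.85 had a limma adjusted p of 0.0441 and was not called in 7 of the 12 fits that left out a single sample, where the difference lay between 1.49 and 3.02. Il1b (0.93), Osm (1.10), Csf1 (0.78) and Ltb (1.27) were also called higher, Ltb because it fell less. Vegfa (-1.38) and Ebi3 (-0.98), the shared subunit of IL-27 and IL-35, were called lower.

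Of 11 chemokine genes, CL097 raised 6 and lowered 1, and CpG raised 6. Ccl3 and Ccl4, which attract T cells and monocytes, were called higher for the difference (1.03 and 1.24) and Ccl22, a ligand of CCR4, lower (-1.18), and after scaling 2 were called higher and 0 lower. With the block 2 were called in each direction. Without CL097-treated Tlr779 sample 2, 5 of the 11 were called. Ccl4 was at 4.33, 4.40 and 4.00 before and 9.01, 8.94 and 8.81 after CL097, and at 5.26, 5.25 and 4.89 before and 8.56, 8.54 and 8.61 after CpG. Each CL097-treated sample was thus above each CpG-treated one although each unstimulated Tlr779 sample was below each unstimulated Tlr9het one. Ccl22 was at 3.47, 3.37 and 2.83 with CL097 and at 4.37, 4.42 and 4.54 with CpG.

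Immediate early transcription factors, which MAP kinase and calcium signals induce rapidly, were more often called higher than lower for the difference. Of 25 tested, CL097 raised 11 and lowered 4, and CpG raised 11 and lowered 10. The difference was called higher in 12 and lower in 3 (median 0.52), and after scaling in 9 and 0 (median 0.40). With the replicate block 13 were higher and 5 lower. Nr4a1, a nuclear receptor that reports antigen receptor signaling, was at 8.38, 8.39 and 8.33 before and 9.63, 9.61 and 9.18 after CL097, and at 8.77, 8.57 and 8.74 before and 8.49, 8.28 and 8.42 after CpG. It rose by 1.11 with CL097, had a response of -0.30 with CpG that was not called, and differed by 1.41 ± 0.15 (limma adjusted p = 4.29e-05). Egr3 fell by 1.00 and dropped by 2.79, and Egr1 had a response of 0.33 that was not called and dropped by 1.15. Zfp36, which encodes the mRNA-destabilizing protein tristetraprolin, differed by 1.16. The AP-1 gene Jun and the AP-1 partner Batf were called lower, at -0.96 and -0.99, although Batf rose by 4.47 and 5.46 and its difference turned to 0.33 and was not called after scaling.

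Calls for the difference among NF-κB genes went in both directions and before scaling were near the shares over all genes. Of 30 subunits, inhibitors and targets, CL097 raised 23 (median 1.22), and CpG raised 22 and lowered 1 (median 1.18). The difference was called higher in 3 and lower in 5, beside 11.8% and 10.8% of all genes, with a median of -0.05 (17 at an unadjusted p under 0.05). After scaling it was called in 9 and 0, beside 6.04% and 4.46% of all genes, with a median of 0.23. Bcl2l1, which encodes the survival protein Bcl-xL, rose by 2.95 and 4.51, and the inhibitors Tnfaip3 and Nfkbia rose by 1.58 and 1.40 with CL097 and by 2.32 and 2.08 with CpG. Nfkbid, an atypical IκB, rose by 0.99 with CL097 and had a response of 0.17 with CpG that was not called (difference 0.82 ± 0.17). The subunit gene Rel differed by 0.70.

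Of 39 genes for TLRs, their chaperones and adaptors, 7 were called higher and 2 lower for the difference, beside 11.8% and 10.8% of all genes. After scaling 2 were called higher and 3 lower. Tlr9 was at 7.22, 7.33 and 7.17 before and 7.15, 6.93 and 7.47 after CL097, and at 7.48, 7.36 and 7.28 before and 8.02, 7.93 and 8.08 after CpG, a difference of -0.69 ± 0.15 (limma adjusted p = 0.00474). It is 1 of the 2 genes called lower, but the Tlr779 samples are Tlr9-/- and carry Tlr9 TIR sequence at the Tlr7 locus. Gene totals do not show which part was read, so this difference cannot be read as regulation of intact Tlr9. Unc93b1, the chaperone of both receptors, had a response of -0.36 with CL097 that was under the threshold and fell by 0.85 with CpG, and Myd88 had a response of 0.21 and rose by 0.55, with differences of 0.49 and -0.34 that were not called. Lgmn, a protease that processes endosomal TLRs, differed by 1.02. The exonucleases Pld3 and Pld4, which degrade TLR ligands, both fell in both responses but differed in opposite ways, Pld3 by 0.93 and Pld4 by -0.74. Of 16 further IRF, STAT and JAK genes, 5 were called higher and 0 lower (6 and 0 after scaling), led by Irf1 at 1.35 ± 0.25 (limma adjusted p = 0.0016), which fell by 1.09 with CpG and had a response of 0.26 with CL097 that was not called.

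Ribosome biogenesis genes were raised less by CL097, and none was called once the responses were scaled. Of 44 ribosome biogenesis genes, CL097 raised 43 and CpG 44 (medians 1.25 and 1.73), and the difference was called lower in 13 and higher in 0 (median -0.38), but in 0 of either direction after scaling (median -0.03). Polr1e, a subunit of RNA polymerase I, rose by 1.23 and 2.13. Of 24 cholesterol genes, CL097 raised 1 and lowered 5, whereas CpG raised 13 and lowered 5. The difference was called lower in 12 and higher in 3, and after scaling in 5 and 3. Those 15 calls rested in part on single samples, since 8 were left without unstimulated Tlr9het sample 1 or CpG-treated Tlr9het sample 2, and 9 without CL097-treated Tlr779 sample 3 or unstimulated Tlr779 sample 1 or 2. The 12 were synthesis, uptake and control genes such as Idi1 (-1.10) and Lss (-1.01), and the 3 were the cholesterol exporters Abca1 (2.10) and Abcg1 (1.25) and the LDL receptor ligase Mylip (1.89), which are known LXR targets. Of 34 complex I genes 6 were called lower, and of 24 glycolysis and lactate genes 5 lower and 2 higher, with 2 and 1 lower and 0 higher after scaling. Without unstimulated Tlr779 sample 1 the counts were 10 for complex I and 4 for glycolysis. The glucose kinase Hk2 rose by 2.92 and 3.76.

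Cell cycle genes differed at few members. Ccne1, the cyclin E1 of S-phase entry, was at 2.94, 2.74 and 2.46 before and 3.14, 4.25 and 4.08 after CL097, and at 3.29, 3.06 and 2.82 before and 2.88, 1.74 and 1.73 after CpG. It rose by 1.11 and dropped by 0.94 (difference 2.05 ± 0.47, limma adjusted p = 0.00525). Fbxo5, an inhibitor of the anaphase-promoting complex, was called in the same opposite directions, at 0.82 and -0.67. In both genes the first sample of the CL097 group lay below the other two, and without that sample 14 genes of G1 and S phase and 7 mitosis genes were called. Ccnd2, cyclin D2, rose by 2.35 and 3.62, and the inhibitor Cdkn1a rose by 1.80 with CpG and had a response of 0.40 with CL097 that was not called. Of 34 genes of G1 and S phase 4 were called higher and 3 lower (2 and 1 after scaling), close to the 11.8% and 10.8% of all genes. Of 22 mitosis genes limma called 0 (0 at an unadjusted p under 0.05) for the difference, and 3 higher and 1 lower with the replicate block. Myc rose by 2.56 and 2.77 (difference -0.20 ± 0.17, not called), while Mxd1, which opposes it, rose by 1.33 with CL097 and had a response of 0.12 with CpG that was not called.

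Few genes were called in opposite directions by both responses. These were 25 genes, 13 raised by CL097 and lowered by CpG and 12 the reverse, and 15 had a mean over 2 log2 CPM. Oas2, which encodes a sensor of double-stranded RNA, was at 3.40, 2.09 and 3.04 before and 4.40, 3.15 and 4.94 after CL097, and at 4.47, 4.08 and 3.30 before and 3.02, 2.88 and 2.81 after CpG. The responses were 1.32 and -1.05, and the difference was 2.36 ± 0.61 (limma adjusted p = 0.0106). 5830416P10Rik, a noncoding gene named Mirt1 in RefSeq, had responses of 0.89 and -1.12. In the reverse direction stood Elovl6, an elongase of fatty acids, with -0.75 and 0.95, Tmem42 with -0.98 and 0.62, Clstn1 with -0.64 and 0.79 and Atp8b4, a phospholipid flippase, with -0.66 and 0.67. With the replicate block the count was 41, and it was 43 without CL097-treated Tlr779 sample 2.

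Markers of B-cell subsets and of other cell types were read beside these results. Of 15 marginal zone markers, 4 were called higher and 1 lower for the difference (4 and 2 with the block), and 0 after scaling. Among them Cd1d1 fell by 1.50 and dropped by 2.29, and S1pr3 fell by 0.93 and dropped by 1.93. The 5 calls became 2 without unstimulated Tlr9het sample 3 and 3 without unstimulated sample 1 or CpG-treated sample 1 or 3 of that arm or unstimulated Tlr779 sample 3, and Cd1d1 was not called without unstimulated Tlr9het sample 1 or 3. Of 12 follicular markers 4 were called higher and 0 lower, also after scaling. The beads had removed cells bearing CD11b or CD11c, by which the paper identified age-associated B cells. Of 14 markers of age-associated B cells only Zbtb32 was called (0.67), and it was not called in 7 of the 12 fits that left out a sample. The block called 1 higher and 3 lower among them. Of 14 plasma cell genes, Mzb1 (1.24) and Pou2af1 (0.83) were called higher and Sdc1, the surface marker CD138, lower (-1.06).

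Markers of cell types other than B cells, not all of them targets of the beads, were present. The summed level of 12 macrophage and monocyte markers was 885 to 941 CPM in unstimulated and 495 to 776 CPM in CL097-treated Tlr779 samples, and 836 to 948 and 531 to 553 CPM in Tlr9het samples without and with CpG, and limma called 0 for the difference (1 at an unadjusted p under 0.05, and 2 lower with the block). The 11 T-cell markers summed to 235 to 280 and 126 to 151 CPM in Tlr779 and to 245 to 280 and 99.2 to 143 CPM in Tlr9het. The median difference of the 11 was -1.28, and it ran from -2.11 without CpG-treated Tlr9het sample 1 to -0.56 without unstimulated Tlr779 sample 1. Of these Cd2, which B cells also express, was called higher (2.23), while Cd3e lay between -4.66 and 2.37 log2 CPM in all samples, and the block called 4 others lower. The erythroid markers differed most between samples, at 769 to 3722 and 707 to 3418 CPM in Tlr779 and 148 to 1616 and 99.9 to 690 CPM in Tlr9het. The median difference of their 6 tested members was 1.85, and it ran from 0.52 without CpG-treated to 2.80 without unstimulated Tlr9het sample 3. Limma called 0 of them (0 at an unadjusted p under 0.05) and 6 higher with the block. Limma called 0 of 8 neutrophil, 5 NK-cell and 4 dendritic cell markers (0, 0 and 0 at an unadjusted p under 0.05, and 0, 1 and 1 lower with the block). Of 6 plasmacytoid dendritic cell markers 1 was called, Tcf4, which B cells also express. The part of these cells in the differences was not tested.

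Other lists are given beside the 11.8% of all genes called higher and 10.8% called lower. Of 25 cAMP and CREB-linked genes, 9 were called higher and 1 lower (6 and 0 after scaling), with the G-protein regulator Rgs2 at 2.05, the repressor Crem at 1.64 and the phosphodiesterase Pde3b at 1.43. Crem had a response of 0.03 with CL097 that was not called and fell by 1.61 with CpG. Of 22 costimulation and activation molecules 3 were called higher and 5 lower (3 and 0 after scaling), among them Cd86, which had a response of 0.19 with CL097 that was not called and fell by 0.59 with CpG, and Cd44, which rose by 1.20 and 2.21. Of 20 class switch and germinal center genes 1 was higher and 6 lower (2 and 2 after scaling, 2 and 7 with the block), with Bach2 at 0.99 and S1pr2 at -1.36. Of 29 SOCS and MAPK phosphatase genes 1 was higher, Dusp5 at 0.92, and 2 were lower, Dusp10 at -0.84 and Dusp22 at -0.83, and with the block 3 were called in each direction. In that list 5 were called without CL097-treated sample 1 or 3 or unstimulated sample 3 of Tlr779. The last lists were short, with 22 or fewer genes tested. Of 22 unfolded protein response genes 1 was higher and 3 lower, of 15 BCL2 family genes 1 higher and 3 lower, of 10 genes of the Myc network 2 higher and of 9 aryl hydrocarbon receptor genes 1 higher, Nfe2l2 at 0.77 (1 higher and 2 lower with the block).

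**Figure D4:**
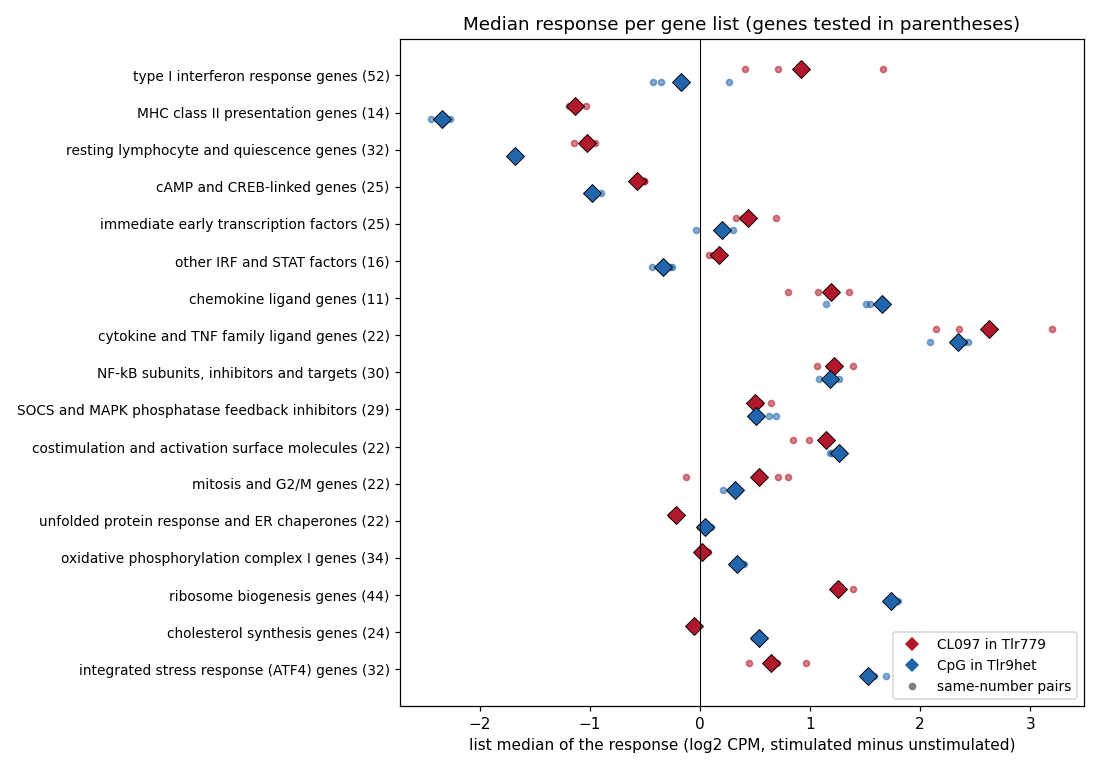
Median response (x axis, log2 CPM) of 17 gene lists to CL097 in Tlr779 (red) and CpG in Tlr9het (blue), with diamonds for the list median over mean responses and small points for the 3 same-number pairs. The interferon list lies right of zero with CL097 (0.92) and at -0.17 with CpG, and the ATF4 list at 0.65 and 1.53.

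The remaining genes of largest difference held further functions. Among the most positive were Lrrk2, a kinase of endolysosomes, which was at 6.52, 6.67 and 6.64 with CL097 and at 3.71, 3.65 and 3.62 with CpG from unstimulated levels of 8.42 to 8.71 (difference 3.04 ± 0.10, limma adjusted p = 6.55e-09). Pgap1, of GPI-anchor processing, differed by 2.79, Txndc16 by 2.78, Zfp831 by 2.69, A430078G23Rik (Arhgef18 in RefSeq) by 2.68, Carns1 by 2.58, the DNA glycosylase Neil1 by 2.50 and the sorting receptor Sorl1 by 2.49. All of these fell in both responses, by less with CL097. Among the most negative was Rbpms, an RNA-binding protein, which was at 0.94, 1.15 and 1.47 before and 2.59, 2.15 and 2.52 after CL097, and at 1.09, 1.10 and 0.29 before and 5.00, 4.82 and 4.88 after CpG (difference -2.84 ± 0.33). Tnfrsf19 differed by -2.70, the Wnt ligand Wnt10b by -2.08 and Igsf9 by -1.88. Scimp, a transmembrane adaptor of TLR signaling, fell by 2.07 with CL097 only, and its response of -0.04 with CpG was not called (difference -2.03 ± 0.31, limma adjusted p = 0.000489). Klhl14 and Lpl, the lipoprotein lipase, likewise fell by 2.13 and 2.18 with CL097 and had responses of -0.41 and -0.50 with CpG that were not called. Pigv, of GPI-anchor synthesis, rose by 1.24 with CpG and had a response of -0.49 with CL097 that was not called.

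**Figure D5:**
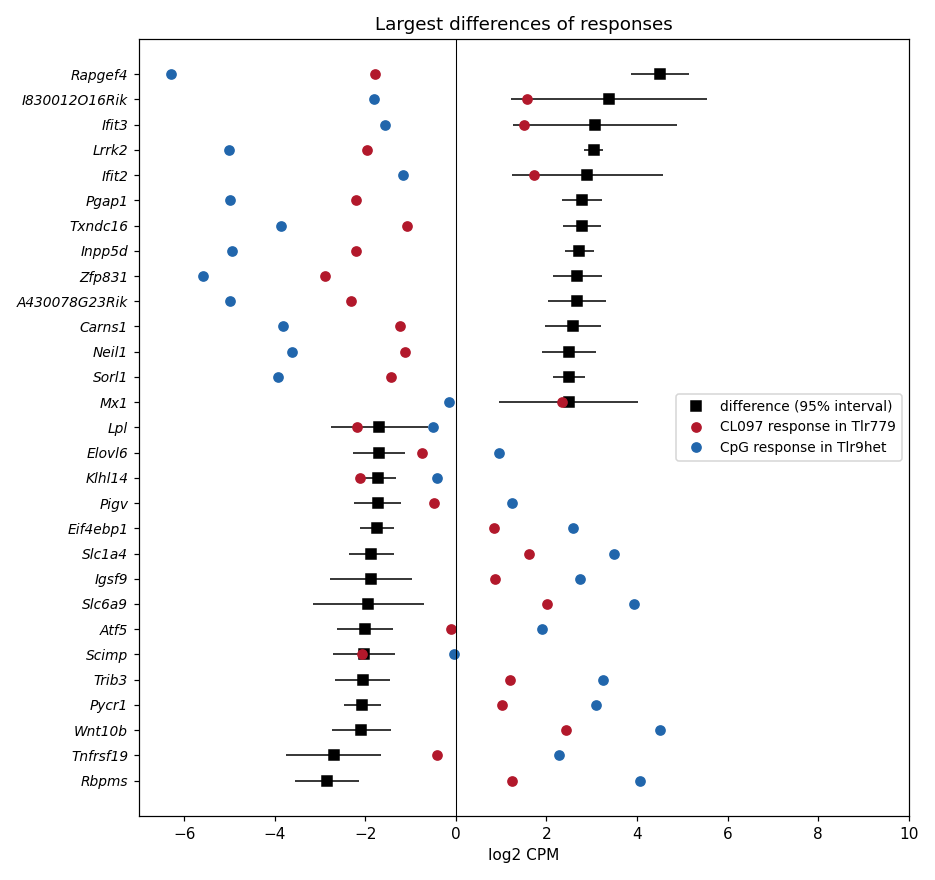
The most positive (14 of 15 drawn) and 15 most negative differences among genes named by the rule (black squares with 95% intervals) with the CL097 (red) and CpG (blue) responses behind them, all in log2 CPM. Rapgef4 leads at 4.50 and Rbpms ends at -2.84.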

How the data were processed

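RNA of 12 samples was sequenced as stranded mRNA libraries. Per the labels and methods, the authors trimmed reads (FastQC 0.11.7, Trim Galore 0.6.5), aligned them with STAR 2.6.1a to mm10, counted genes with featureCounts (Subread 2.0.1), and applied quantile normalization and voom. The deposited values were log2 CPM for 23420 genes in each of 18 files, with no counts, so depth per sample is unknown, no counting interval could be given, and voom's offset understates changes of low genes. Fitted values are those log2 values, with no added pseudocount. limma 3.58.1 (R 4.3.3, variance trend on the mean) fitted 4 group means over the 12 samples, and the contrasts were both responses and their difference. Genes needed over 0 log2 CPM in at least 3 of the 12 samples and a place outside X and Y in RefSeq (GRCm38.p6, where 21571 symbols matched directly and 1689 by older symbols), which left 11079. Replicates were 3 samples per group, from 3 mice per genotype by the protocol. Same-number samples correlated in their deviations from group means at 0.24, 0.45 and 0.30 in Tlr779 and 0.54, 0.28 and 0.52 in Tlr9het, so the numbers were taken to pair samples within an arm, and the fit with that replicate block is the alternative. Of 6209 genes under -4 in all 18 samples, 6008 had 1 value per number, and for 524 of these it differed between numbers with a mean over numbers equal to the low value shared by most genes, to within 0.002, so an offset per number and gene, common to both arms, had been removed before deposit. It cancels in the balanced contrasts, but 2 of the 8 residual degrees of freedom were spent on it. The main fit counted all 8, so its standard errors and p were not corrected for this. A block for the number common to both arms, with 6 residual degrees of freedom, called 2452 genes for the difference. Where a sample is left out the groups are unbalanced and the offset does not cancel, so those fits mix it with the weight of the sample. Named genes were the 15 most positive and 15 most negative called differences (mean over 2 log2 CPM, pair differences not overlapping between arms), 5 per direction of opposite calls and of shared responses, up to 4 called members per list, and 10 receptor, adaptor and cytokine genes. Ifnb1, Isg15, Ciita, Foxo1, Asns, Phgdh, Eif4ebp1 and other members named beside them were chosen after their values were seen. The members, lists and this comparison were chosen with earlier results of these data known. The fit was tested on simulated data with independent noise in each sample. Those data held neither the pairing nor the removed offset, so they cannot show how the fit handles them. A few genes are counted but not reported by name here. Alternatives were other filters, normalizations, variance models, thresholds, blocks, slope scaling and leaving out each sample.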

Additional observations from a re-analysis of the deposited data

Results flagged for a closer look

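The 2 responses differed by the test of the difference in 2500 genes, and 25 of these were called in opposite directions. Those with a mean over 2 log2 CPM and the largest differences were Ifit3 (3.07), Oas2 (2.36), Ccne1 (2.05), 5830416P10Rik (2.00) and Fbxo5 (1.49), raised by CL097 and lowered by CpG, and Elovl6 (-1.70), Tmem42 (-1.61), Clstn1 (-1.43), Atp8b4 (-1.32) and Pck2 (-1.28), the reverse. Groups of 3 were too small for a test of single outlying samples. Among genes of low level, chosen after their values were seen, Mpzl2 differed by 5.02 ± 0.80 and Tnfrsf10b, a death receptor, by 2.62 ± 0.37. Both were raised by CL097 and lowered by CpG. Mpzl2 was at -3.59, -2.41 and -4.87 log2 CPM with CpG, near the lower limit of the data. The size of its fall thus depends on the offset used before taking logs.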

How the results depend on the processing

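With slope scaling the difference was called in 1163 genes, with an absolute log2 value over 1 in 815 and with no fold threshold in 3892. Those thresholds gave 7 and 147 genes in opposite directions, and an absolute log2 value over 1 gave 2670 genes for CL097 and 4014 for CpG. With the replicate block within each arm, genes in opposite directions numbered 41, and the difference 2880. The slope was 0.814 without a filter on low values. Leaving out each sample gave 2154 to 2616 genes for the difference, 5073 to 5350 for CL097, 6398 to 6608 for CpG, 18 to 43 in opposite directions and a slope of 0.751 to 0.784. All other alternatives stayed within 1.5 times these counts. The cause of these shifts was not tested, beyond what the thresholds and scaling fix by construction. Of 136 named genes called for the difference, 98 kept the call after slope scaling, 34 lost it, and the sign of Tm6sf1 (-0.0715), Batf (0.33), Bcl2a1d (0.12) and Hk2 (0.0685) reversed. Apart from Il10, Ppl and the counts given with it above, the block changed no call of the named genes and, beyond the block counts given above, moved no list count by over 1.5 times in either direction. Unknown depth limits all genes near the lower end of the scale.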
